A study of Homo sapiens with 3 samples.

Results

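The integrin and laminin genes are the genes of 2 protein families that join cells to the basement membrane. The families were picked with earlier results of these data known, and their members were then taken by symbol (ITGA, ITGB, LAMA, LAMB or LAMC followed by the number or letter of the chain). Each was read from its brightest transcript cluster, the set of array probes that reports a gene. Of such symbols, 30 had a cluster of their own, among 14410 genes in all: 21 integrin and 9 laminin genes. ITGA1, ITGA4, ITGAE, ITGAM and LAMB3 lay only in clusters listed with several symbols and were not named, and other members of the families were not analysed here.

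Integrins are receptors made of 1 alpha and 1 beta subunit, both of which span the membrane. The pairing sets what the receptor binds: laminins, collagens, proteins with an RGD sequence such as fibronectin, or, on leukocytes, other cells. Laminins are cross-shaped trimers of 1 alpha, 1 beta and 1 gamma chain that build the basement membrane under epithelia. In epithelium α6β4 holds the basal surface to laminin through hemidesmosomes, and αVβ6 is an epithelial receptor that activates latent TGF-β.

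Total RNA of 3 human cell lines was hybridised to exon arrays, 1 for each line. The first, HT-29, comes from a colon adenocarcinoma; it was kept in McCoy's 5A medium with 10% serum and had been given the cytokine interferon gamma (IFN-γ) for 24 h at 200 U/ml. MDA-MB-436, a breast adenocarcinoma line, was grown in L-15 medium with 10% serum. MCF10A, mammary epithelial cells that do not form tumours, had DMEM/F12 medium with 5% horse serum. To it were added insulin at 10 µg/ml, cholera toxin at 100 ng/ml, hydrocortisone at 500 ng/ml and epidermal growth factor at 20 ng/ml. Untreated HT-29 cells were not analysed here, so line, medium and IFN-γ cannot be told apart wherever HT-29 is compared. Line and medium cannot be told apart between the mammary lines either. Since each line has a single array, no spread between replicates could be had: no test, p-value or standard error is given, and a fold describes these arrays only.

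Values are intensities on a linear scale in arbitrary units, whose normalization is not given in the sources used here. Background was the 95th percentile of 228 olfactory receptor genes, 29.9, and the highest single olfactory receptor value was 101. A gene was counted as higher or lower when its intensities differed at least 4-fold and the larger was above background. Where the smaller was under background, the fold was computed against the background and is written "at least". Intensities of different genes come from different probes and were not compared with each other. The summed intensities of marker lists are the exception, and bright genes weigh most in them. Defining markers were read against the labels. The epithelial genes EPCAM, CDH1, KRT8, KRT18 and CLDN4 were above background for 5 of 5 in HT-29, 3 of 5 in MDA-MB-436 and 5 of 5 in MCF10A, whereas 5 of 5 mesenchymal genes (VIM, CDH2, FN1, SPARC and ZEB1) were above it in MDA-MB-436, 4 of 5 in MCF10A and 0 of 5 in HT-29. EPCAM in MDA-MB-436, at 34.9, and CDH2 in MCF10A, at 33.9, were just above background. Of 5 intestinal genes 4 were above background in HT-29, 1 in MDA-MB-436 and 0 in MCF10A. CDH17 was under it in HT-29 at 21.3, and CDX1 was just above it, at 34.8 in HT-29 and 33.3 in MDA-MB-436. CDH1, which defines epithelium, was at 10.3 in MDA-MB-436. Of 4 measured basal mammary genes (KRT14, SERPINB5, CDH3 and TRIM29), 4 were above background in MCF10A, 3 in HT-29 and 0 in MDA-MB-436. Of 6 leukocyte genes 1 was above background in each line, CD14, at 38.9 in HT-29, 86.5 in MDA-MB-436 and 156 in MCF10A. PTPRC, which encodes the leukocyte protein CD45, was at 3.72, 4.16 and 3.05 in the same lines.

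Above background were 17 of the 30 genes in HT-29, 18 in MDA-MB-436 and 17 in MCF10A, or 56.7%, 60% and 56.7%. Over all genes the shares were 66.6%, 68.8% and 65%. In all 3 lines 14 of the 30 were above background, and 8 were under it in all 3, with intensities between 4.29 and 29.9. Among the 22 genes above background in at least 1 line, the highest and lowest line differed by under 2-fold for 11, by 2-fold to 4-fold for 7 and by at least 4-fold for 4, with values under background set to it. These last 4 were ITGA5, ITGB5, ITGB6 and LAMA4.

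**Figure D1:**
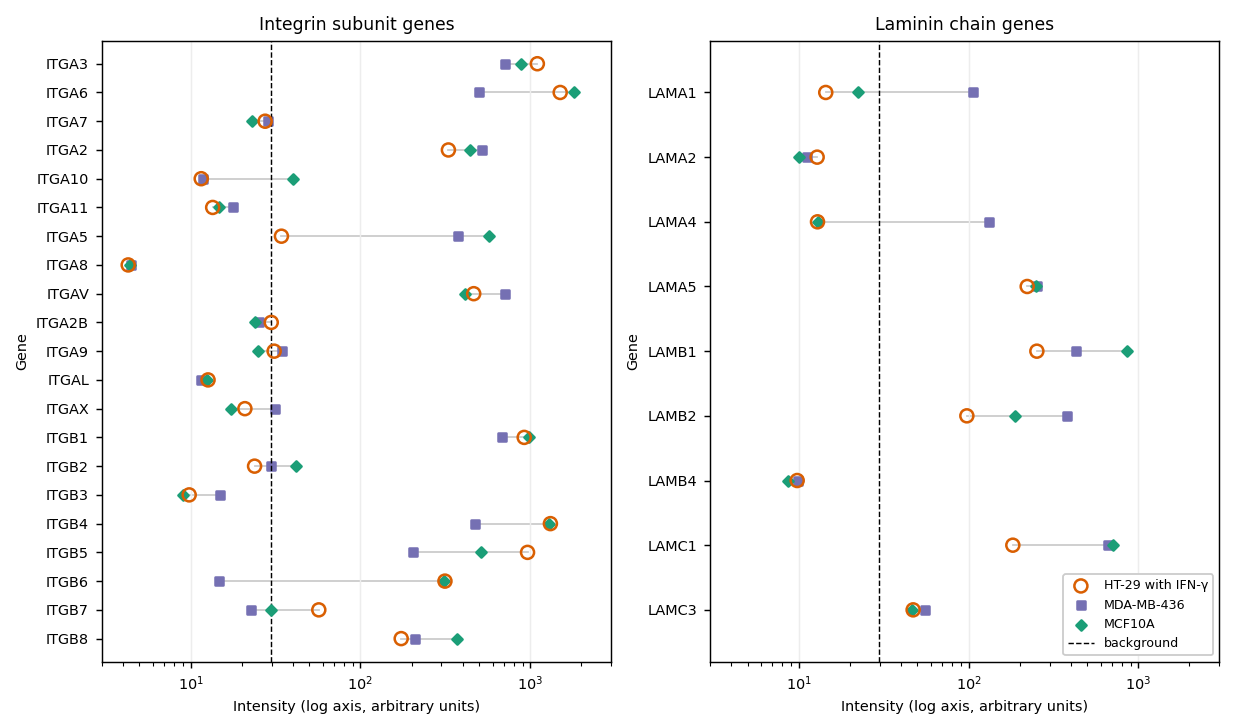
Intensity (log axis, arbitrary units) of each of the 30 genes in the 3 lines, 1 array each, with integrin genes on the left and laminin genes on the right; the dashed line is the background of 29.9. ITGA5 was low in HT-29 alone, ITGB6 was low in MDA-MB-436 alone, and LAMA1 and LAMA4 were above background in MDA-MB-436 alone.

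Among the alpha subunits that bind laminin, ITGA3 and ITGA6 were above background in every line. ITGA6, the alpha partner of β4 in hemidesmosomes, was at 1500.0 in HT-29, 497 in MDA-MB-436 and 1808 in MCF10A. It was thus lower in MDA-MB-436, 3.64-fold against MCF10A, and 3.02-fold higher in HT-29 than in MDA-MB-436, while HT-29 and MCF10A were 1.21-fold apart. ITGA3, whose product pairs with β1, was at 1101, 711 and 876 in the same order. Its 3 values lay within 1.55-fold. ITGA7, a laminin receptor subunit of muscle, was under background in each line, at 22.9 to 28.5.

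Of the measured alpha subunits that bind collagen, ITGA2 was expressed in every line and ITGA11 in none above background. ITGA2 was at 329.6 in HT-29, 522 in MDA-MB-436 and 442 in MCF10A, a range of 1.58-fold. ITGA10, a collagen receptor subunit of cartilage, was at 11.5 in HT-29, 11.8 in MDA-MB-436 and 40.1 in MCF10A. Only the MCF10A value was above background, by 1.34-fold, and it was under the highest olfactory receptor value. ITGA11 was at 13.5 to 17.7.

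The fibronectin receptor subunit ITGA5 had the largest difference of any of the 30 genes between HT-29 and MCF10A. Its intensity was 34.3 in HT-29, 374 in MDA-MB-436 and 572 in MCF10A. HT-29 stood apart from both mammary lines, 16.7-fold lower than MCF10A and 10.9-fold lower than MDA-MB-436, and its value was just above background. Of all 14410 genes, 63 were as far or further down in HT-29 against MCF10A and 110 against MDA-MB-436, with values under background set to it. MDA-MB-436 was 1.53-fold lower than MCF10A. ITGAV, an alpha subunit shared by several receptors, had 465 in HT-29, 708 in MDA-MB-436 and 412 in MCF10A. MDA-MB-436 was highest, 1.72-fold above MCF10A. ITGA8 and the platelet fibrinogen receptor gene ITGA2B were under background throughout.

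Alpha subunits known mainly from leukocytes were at or near background. ITGAX was at 20.9 in HT-29, 31.5 in MDA-MB-436 and 17.2 in MCF10A, and ITGAL, whose product pairs with β2, lay between 11.5 and 12.7. ITGA9, a β1 partner that binds tenascin, was at 31.0 in HT-29, 34.7 in MDA-MB-436 and 25.0 in MCF10A, values that straddle the background.

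ITGB1, ITGB4, ITGB5 and ITGB6 were lowest in MDA-MB-436. Of 8 beta genes, 6 were lower in MDA-MB-436 than in MCF10A by any amount with the larger value above background, against 38.8% of all genes, and 0 were higher, against 32.7%. By at least 2-fold, 3 of the 8 were lower, against 8.74% of all genes. Among all 21 integrin genes, 10 were lower and 4 higher by any amount. ITGB6, the epithelial partner of αV, was at 314 in HT-29, 14.8 in MDA-MB-436 and 310.5 in MCF10A. MDA-MB-436 was under background, at least 10.4-fold lower than MCF10A, and HT-29 was at least 10.5-fold higher than MDA-MB-436, whereas HT-29 and MCF10A were 1.01-fold apart. Of all genes, 78 were as far or further down between the mammary lines. Of the 5 epithelial markers 3 also passed 4-fold with MDA-MB-436 below MCF10A. These were CDH1 by at least 23.9-fold, EPCAM, just above background in MDA-MB-436, by 10.3-fold and CLDN4 by at least 4.26-fold. The summed intensity of the 5, most of it from KRT8 and KRT18, was 15696 in HT-29, 1693 in MDA-MB-436 and 3862 in MCF10A. Their part in the ITGB6 difference was not tested. ITGB4, the hemidesmosomal subunit, was at 1314 in HT-29, 473 in MDA-MB-436 and 1281 in MCF10A. It followed its partner ITGA6, 2.71-fold lower in MDA-MB-436 than in MCF10A, with HT-29 and MCF10A 1.03-fold apart.

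ITGB5, which encodes the vitronectin receptor partner of αV, was at 964 in HT-29, 205 in MDA-MB-436 and 509 in MCF10A. The 3 lines were all apart: HT-29 was 4.70-fold higher than MDA-MB-436 and 1.89-fold higher than MCF10A, and MDA-MB-436 was 2.49-fold lower than MCF10A. ITGB8, another αV partner, was at 174 in HT-29, 209 in MDA-MB-436 and 368 in MCF10A. HT-29 was 2.12-fold and MDA-MB-436 1.76-fold lower than MCF10A. ITGB1, the partner of most alpha subunits, was at 921 in HT-29, 678 in MDA-MB-436 and 978 in MCF10A, within 1.44-fold. ITGB7, known from lymphocytes, was at 56.9 in HT-29, 22.6 in MDA-MB-436 and 29.6 in MCF10A, at least 1.90-fold higher in HT-29 than in either mammary line. ITGB2, the leukocyte subunit, was above background only in MCF10A, at 23.8 in HT-29, 29.6 in MDA-MB-436 and 41.5 in MCF10A. ITGB3 was under background throughout, at 8.99 to 14.8.

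Among the laminin alpha chains, LAMA1 and LAMA4 set MDA-MB-436 apart. LAMA4, a chain best known from vessels and mesenchyme, was at 12.9 in HT-29, 132 in MDA-MB-436 and 13.0 in MCF10A. MDA-MB-436 was at least 4.40-fold higher than MCF10A, and HT-29 at least 4.40-fold lower than MDA-MB-436. LAMA1, the chain of early embryonic basement membrane, was at 14.4 in HT-29, 107 in MDA-MB-436 and 22.2 in MCF10A. Its measured log2 difference between MDA-MB-436 and MCF10A was 2.26, but against the background the fold is at least 3.56, so its count at 4-fold rests on a value under background. Both genes' MDA-MB-436 values were just above the highest olfactory receptor value of 101. Of the 5 mesenchymal markers 3 likewise passed 4-fold with MDA-MB-436 above MCF10A. These were CDH2, just above background in MCF10A, by 20.9-fold, ZEB1 by 5.99-fold and SPARC, whose bound is 2.36-fold. The summed intensity of the 5, most of it from VIM in the mammary lines, was 92.2 in HT-29, 3668 in MDA-MB-436 and 2429 in MCF10A. Their part in these differences was not tested. LAMA5, the main alpha chain of adult epithelium, did not separate the lines, at 222 in HT-29, 253 in MDA-MB-436 and 250.5 in MCF10A. LAMA2, a chain of muscle, was at 10.1 to 12.9.

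Of the beta and gamma chains, LAMB1, LAMB2 and LAMC1 were lowest in HT-29. LAMC1, the gamma chain of most laminins, was at 182 in HT-29, 666 in MDA-MB-436 and 708 in MCF10A. HT-29 was 3.88-fold lower than MCF10A and 3.65-fold lower than MDA-MB-436, while the sign of the small difference between the mammary lines turned with quantile normalization. LAMB1 was at 253 in HT-29, 432 in MDA-MB-436 and 859 in MCF10A, so that HT-29 was 3.40-fold and MDA-MB-436 1.99-fold lower than MCF10A. LAMB2, a beta chain of synaptic, muscle and kidney basement membranes, had another order, with 97.8 in HT-29, 379.9 in MDA-MB-436 and 188 in MCF10A. MDA-MB-436 was 2.02-fold higher than MCF10A, and HT-29 3.89-fold lower than MDA-MB-436. LAMC3 was at 47.2, 55.6 and 46.4 in HT-29, MDA-MB-436 and MCF10A, within 1.20-fold, and LAMB4 was under background. Of 9 laminin genes, 7 were lower in HT-29 than in MDA-MB-436 by any amount with the larger value above background, against 33.4% of all genes, and 0 were higher, against 39.7%. The sign of each of these 7 was kept after quantile normalization and median centring. Against MCF10A 4 of the 9 were lower in HT-29 by this rule, against 34.8% of all genes.

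Read as comparisons, the 4-fold counts were few. Between MDA-MB-436 and MCF10A, 2 of 30 genes were at least 4-fold higher (LAMA1 and LAMA4), against 3.65% of all genes, and 1 was at least 4-fold lower (ITGB6), against 2.01%. HT-29 with IFN-γ against MCF10A gave 0 of 30 genes higher, against 4.34% of all genes, and 1 lower (ITGA5), against 3.5%. HT-29 with IFN-γ against MDA-MB-436 gave 2 higher (ITGB5 and ITGB6), against 4.21%, and 3 lower (ITGA5, LAMA1 and LAMA4), against 4.68%. With 30 genes, counts of 0 to 3 do not set the families apart from all genes. At 2-fold, 3 genes were higher and 5 lower between MDA-MB-436 and MCF10A (8.76% and 8.74% of all genes), 0 higher and 5 lower between HT-29 and MCF10A (10.2% and 10.1%), and 5 higher and 5 lower between HT-29 and MDA-MB-436 (11.5% and 11%). ITGA10 is among those lower than in MCF10A, where its bound is 1.34-fold. The comparisons share arrays and are not independent. The 30 genes had a median log2 difference of 0.018 in MDA-MB-436 against MCF10A, of 0.0039 in HT-29 against MCF10A and of -0.18 in HT-29 against MDA-MB-436. Over all genes they were 0.018, 0.11 and 0.076, and with values under background set to it every one of these medians was 0.

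**Figure D2:**
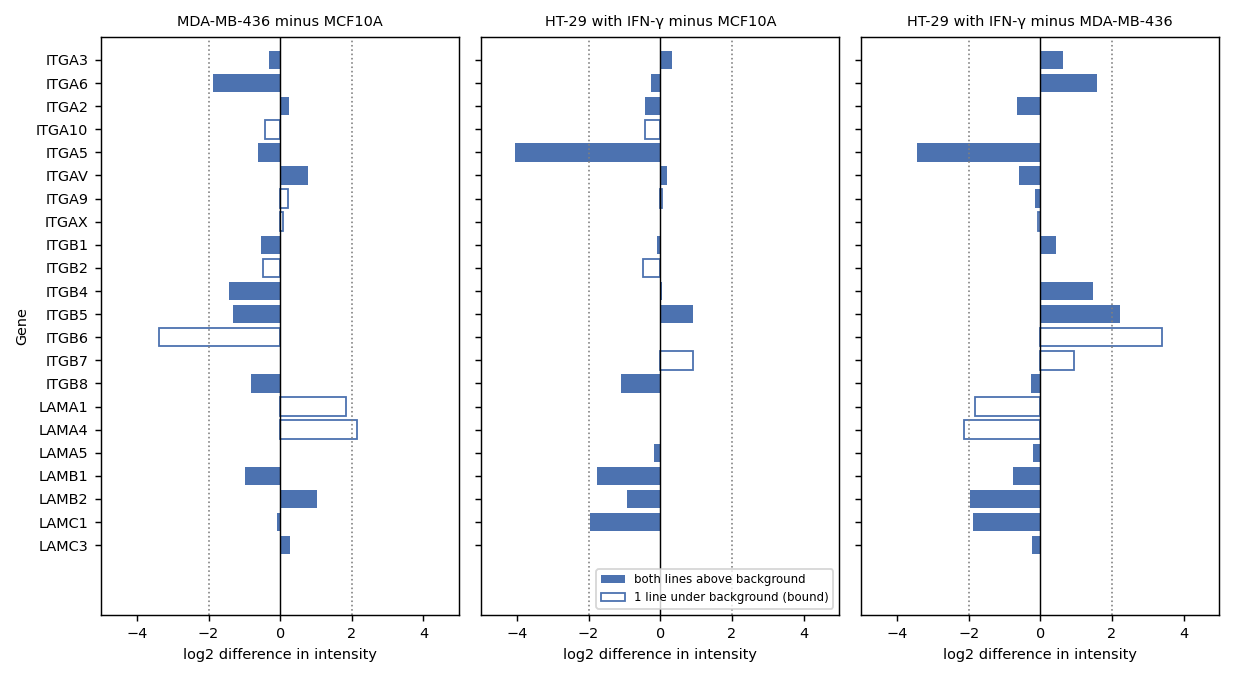
Log2 difference in intensity for each of the 22 genes above background in at least 1 line, in the 3 comparisons, each with the subtracted line named last; open bars have 1 line under background and are drawn against the background as bounds, no bar is drawn where both were under it, and dotted lines mark 4-fold. ITGA5 reached -4.06 in HT-29 minus MCF10A and -3.45 in HT-29 minus MDA-MB-436, and the bounds for ITGB6 were -3.38 in MDA-MB-436 minus MCF10A and 3.39 in HT-29 minus MDA-MB-436.

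Promoters are shown for the genes past 4-fold, to set their start regions side by side. RefSeq promoters (GRCh38.p14, 250 bases before to 50 after the gene's start) matched 20 of the 30 genes, among them ITGA5, ITGB5, ITGB6 and LAMA4, but not LAMA1. The start that these cells use was not measured, and the match of letters describes the window only. Sequences run 5′ to 3′ on the gene's strand, and capitals mark the AP-1 motif TGANTCA and the SP1 box GGGCGG, searched on both strands.
ITGA5, chr12:54419217-54419516, minus strand: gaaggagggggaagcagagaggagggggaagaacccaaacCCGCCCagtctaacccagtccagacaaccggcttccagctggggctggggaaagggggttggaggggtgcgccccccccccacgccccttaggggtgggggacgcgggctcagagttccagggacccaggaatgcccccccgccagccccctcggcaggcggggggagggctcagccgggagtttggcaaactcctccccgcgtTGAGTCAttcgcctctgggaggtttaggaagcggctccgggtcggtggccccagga
ITGB6, chr2:160200223-160200522, minus strand: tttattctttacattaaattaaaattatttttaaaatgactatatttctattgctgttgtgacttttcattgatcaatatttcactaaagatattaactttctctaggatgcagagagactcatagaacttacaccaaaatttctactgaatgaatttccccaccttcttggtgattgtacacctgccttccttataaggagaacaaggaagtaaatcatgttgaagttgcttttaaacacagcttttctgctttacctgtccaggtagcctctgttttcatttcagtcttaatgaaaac
ITGB5, chr3:124901369-124901668, minus strand: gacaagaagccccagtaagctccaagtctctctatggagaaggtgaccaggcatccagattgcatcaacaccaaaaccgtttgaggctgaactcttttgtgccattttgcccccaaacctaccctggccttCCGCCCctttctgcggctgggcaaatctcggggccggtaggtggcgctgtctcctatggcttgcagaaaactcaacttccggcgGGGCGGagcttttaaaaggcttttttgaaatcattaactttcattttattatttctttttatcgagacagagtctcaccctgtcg
LAMA4, chr6:112254518-112254817, minus strand: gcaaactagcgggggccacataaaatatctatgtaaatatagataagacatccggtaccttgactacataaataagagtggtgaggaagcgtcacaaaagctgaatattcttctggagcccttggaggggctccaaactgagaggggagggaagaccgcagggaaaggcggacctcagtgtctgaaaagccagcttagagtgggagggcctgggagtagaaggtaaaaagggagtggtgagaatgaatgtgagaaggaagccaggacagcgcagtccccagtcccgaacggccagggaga

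In the ITGA5 window 1 AP-1 match began at position -6 relative to the gene's start and 1 SP1 match, read on the other strand, at -210, so they did not overlap. TGANTCA was found in 1 of the 20 windows (ITGA5), against 7.71% of 35116 RefSeq promoters. GGGCGG was found in 11 of the 20, 55%, against 45% of all. ITGB5 held 2 SP1 matches, the first at -119, and ITGB6 and LAMA4 held neither motif. The ITGB6 window was 31.7% G and C, against 69.3% for ITGA5, 51.3% for LAMA4, 49.7% for ITGB5 and a median of 58.7% over all promoters.

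Set against the known subunit combinations, the lines shared most of their integrins. Of 24 known heterodimers 18 had both subunits measured, and both were above background for 10 in HT-29, 9 in MDA-MB-436 and 10 in MCF10A. In all 3 lines 8 were present by this rule: α2β1, α3β1, α5β1, α6β1, αVβ1, αVβ5, αVβ8 and α6β4. The lines differed in αVβ6, whose β6 gene was under background in MDA-MB-436. They also differed in α9β1, which met the rule in all but MCF10A, and in α10β1, which met it only there. The calls for α9β1, for α10β1 and for α5β1 in HT-29 rest on intensities of 40.1 or less, and with the 99th percentile of olfactory receptor genes as background, 60.6, the counts were 8, 8 and 9. Protein and assembly were not measured.

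Of 14 laminin trimers 11 had every chain measured. Every chain was above background for 3 in HT-29, 8 in MDA-MB-436 and 3 in MCF10A. The 3 shared ones hold the α5 chain: laminin 511, 521 and 523, named by their alpha, beta and gamma chains. The other 5 of MDA-MB-436 were laminin 111 and 121, which hold LAMA1, and laminin 411, 421 and 423, which hold LAMA4. These 5 thus follow from 2 genes. The trimers that hold LAMA2 had no line above background for that chain. At the 99th percentile, 60.6, the counts were 2, 6 and 2. Laminin 523, and 423 in MDA-MB-436, dropped out because LAMC3, at 46.4 to 55.6, was under that level.

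**Figure D3:**
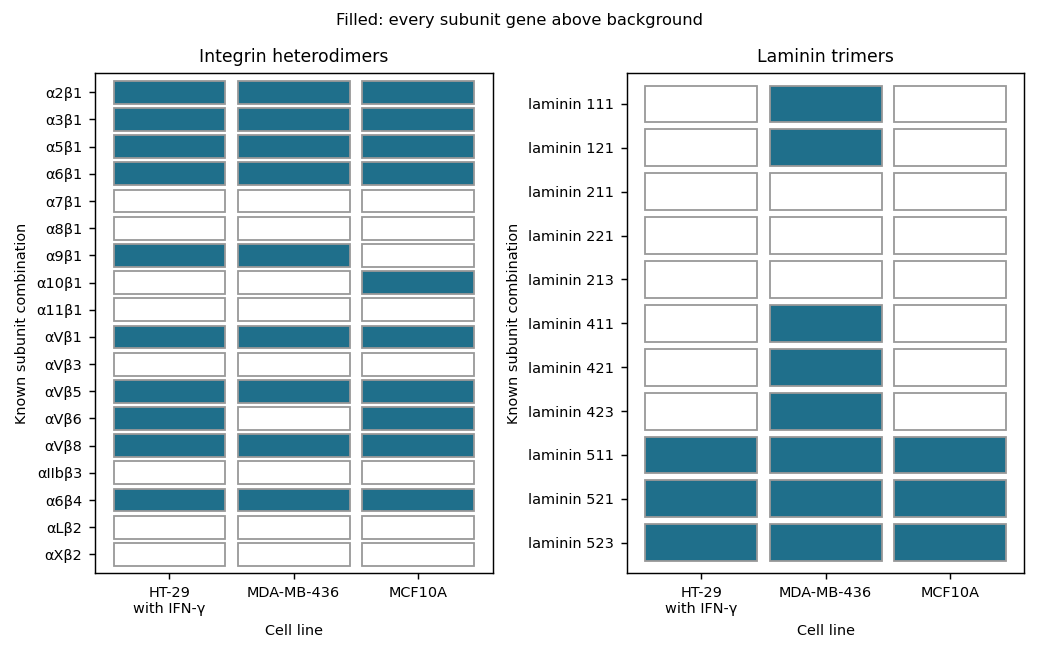
Known integrin heterodimers (left) and laminin trimers (right) whose subunit genes were all measured, in columns by line; a filled tile means that every subunit gene was above the background of 29.9. The tiles differ between lines for α9β1, α10β1 and αVβ6, and for the 5 laminin trimers that hold the α1 or α4 chain.

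Genes that act with these families were read from 5 lists and counted at 4-fold. Over all genes the shares higher and lower were 3.65% and 2.01% in MDA-MB-436 against MCF10A, 4.34% and 3.5% in HT-29 against MCF10A, and 4.21% and 4.68% in HT-29 against MDA-MB-436. Among 29 measured integrin adaptors and activators, 0 were higher and 2 lower in MDA-MB-436 than in MCF10A, 1 was higher and 3 lower in HT-29 than in MCF10A, and 5 were higher and 3 lower in HT-29 than in MDA-MB-436. The kindlins activate integrins by binding beta tails. FERMT1, the epithelial kindlin, was at 437 in HT-29, 15.8 in MDA-MB-436 and 693 in MCF10A, high and low in the same lines as ITGB6. FERMT2 was at 8.65 in HT-29, 329.6 in MDA-MB-436 and 164 in MCF10A, with HT-29 the low line as for ITGA5. FERMT3, the kindlin of blood cells, was at 45.7 in HT-29, 149 in MDA-MB-436 and 39.2 in MCF10A, highest in MDA-MB-436 but short of 4-fold. TNS4, a tensin that lacks the actin-binding part of its relatives, was 7.33-fold lower in HT-29 than in MCF10A and, in MDA-MB-436, below MCF10A by at least 54.9-fold. PARVB, a partner of integrin-linked kinase, was 7.19-fold lower and the scaffold gene NEDD9 at least 8.45-fold higher in HT-29 than in MCF10A. TGFB1I1, a paxillin relative, was 6.32-fold lower in HT-29 than in MDA-MB-436.

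Of 7 measured hemidesmosome and tetraspanin genes, 2 were below their MCF10A value by at least 4-fold in MDA-MB-436, against 2.01% of all genes, and none was at least 4-fold higher, against 3.65%; their median was -1.19 on the log2 scale. They were KRT14, a keratin of basal cells, at least 125-fold lower, and the tetraspanin gene CD82, 4.68-fold lower. HT-29 had 1 of the 7 lower than in MCF10A, KRT14 again at least 125-fold, and 1 higher than in MDA-MB-436, CD82 at 5.40-fold.

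Among 36 measured integrin ligands, MDA-MB-436 had 7 at least 4-fold above MCF10A and 0 below it, against 3.65% and 2.01% of all genes. Against the background the folds of FBLN5 and EDIL3, which are among these 7, are at least 2.29 and at least 1.87. HT-29 had 1 higher and 3 lower than in MCF10A, against 4.34% and 3.5%, and 0 higher and 7 lower than in MDA-MB-436, against 4.21% and 4.68%. EDIL3 is among those lower than in MDA-MB-436, where its bound is also 1.87-fold. FN1, the fibronectin gene and ligand of α5β1, was at 15.6 in HT-29, 563 in MDA-MB-436 and 401 in MCF10A. The line with the low FN1 value was thus the line with the low ITGA5 value. TNC, the tenascin C gene, was 4.85-fold and the fibrillin gene FBN1 at least 11.3-fold above MCF10A in MDA-MB-436, as was the collagen VI gene COL6A1, 4.97-fold. LTBP1, which holds the latent TGF-β that αVβ6 acts on, was 14.5-fold lower in HT-29 and 3.54-fold lower in MDA-MB-436 than in MCF10A. ICAM1, the ligand of β2 integrins, was at 2569 in HT-29, 1049.9 in MDA-MB-436 and 74.9 in MCF10A.

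Of 16 measured basement membrane genes outside the laminins, MDA-MB-436 had 3 at least 4-fold above MCF10A and 0 below it, against 3.65% and 2.01% of all genes: NID1 and NID2, the nidogens that link laminin to collagen IV, and SPARC, a protein that binds collagen IV. Against the background the folds of NID2 and SPARC are at least 2.49 and at least 2.36. NID1 was at 15.1 in HT-29, 445 in MDA-MB-436 and 10.5 in MCF10A, above background in MDA-MB-436 alone like LAMA1 and LAMA4. HT-29 had 2 genes higher than in MCF10A, NPNT, an α8β1 ligand, at least 9.59-fold, and NTN4, a netrin that binds laminin, 6.28-fold, and 0 lower. Against MDA-MB-436 it had 3 higher, the same 2 and FRAS1, a gene of the epithelial basement membrane, at least 4.28-fold, and 3 lower. Of 7 measured laminin receptors outside the integrins, the syndecan gene SDC2 stood at least 16.1-fold above MCF10A in MDA-MB-436, and no gene was at least 4-fold lower. SGCE, a sarcoglycan gene, was at least 12.4-fold lower in HT-29 than in MCF10A and at least 21.6-fold lower than in MDA-MB-436, and BCAM, a receptor for the laminin α5 chain, was 6.08-fold higher in HT-29 than in MCF10A.

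**Figure D4:**
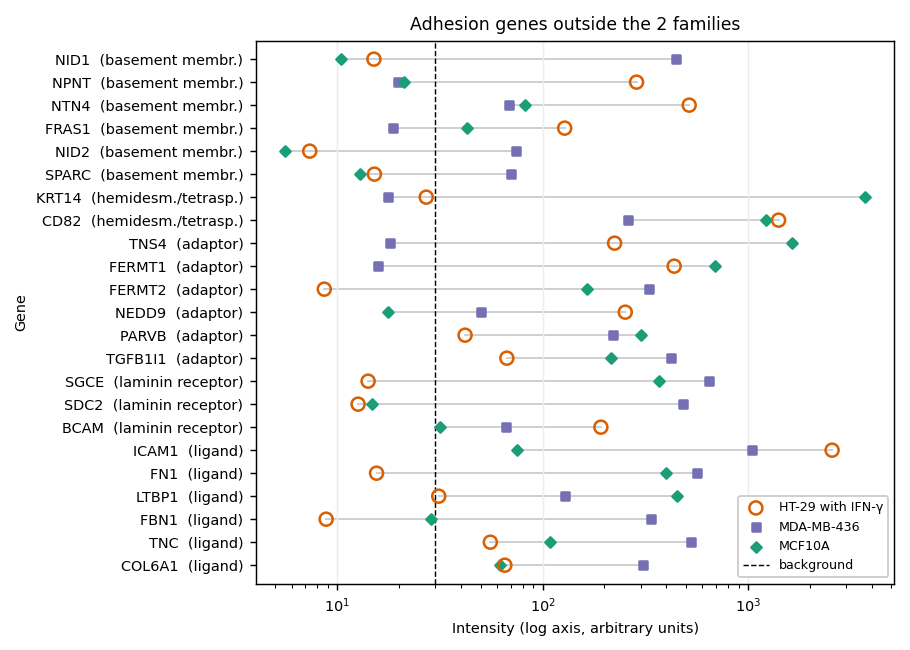
Intensity (log axis, arbitrary units) in the 3 lines, 1 array each, of the 23 adhesion genes outside the 2 families that differed most in their lists; the dashed line is the background of 29.9. FERMT1 was low in MDA-MB-436 alone, FN1 and FERMT2 were low in HT-29 alone, and NID1 and SDC2 were above background in MDA-MB-436 alone.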

How the data were processed

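Total RNA of 3 cell lines was measured, 1 array each. The authors deposited 1 linear intensity per array for 18708 transcript clusters. The summary method, background correction and normalization are not given in the sources used here, and the genome build hg19 is from the submitters' processing notes. Small differences can depend on that unstated scaling.

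Clusters were named from GEO's platform annotation whose symbols were brought up to date by identifier from RefSeq (GRCh38.p14). Of the clusters, 14733 had 1 symbol, 2875 had several and 1100 had none listed; 14705 matched by identifier. A gene was read from its brightest cluster by mean. Intensities were log2 transformed as deposited and subtracted between arrays. A gene counted past 4-fold when its larger intensity was above the 95th percentile of olfactory receptor genes. No test was made, and precision is limited by the number of arrays. The members and lists were chosen with earlier results of these data known. Every member is described. Of each list the text counts all measured genes and names up to 6 with the largest difference past 4-fold. FERMT3, CD151, PLEC and DST did not pass 4-fold and are named outside this rule. FBLN5 and EDIL3 passed 4-fold but were not among the 6 of their list, and are named for their bounds. Related genes can share probe signal.

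The counting step was tested on simulated data with changes planted only in genes well above background. That run does not speak to changes in genes near it. Alternatives were quantile normalization, median centring, other filters and folds, a floor at background, an offset of 16 and the median over clusters. Protein sequences were planned for comparison but not used here, and other motif searches are not reported here. Python 3.11.15, numpy 2.4.6, pandas 2.3.3, scipy 1.17.1 and matplotlib 3.10.9 were used.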

Additional observations from a re-analysis of the deposited data

How the results depend on the processing

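With 1 array per line, the number of arrays is the limit, and a gene near the background of 29.9 can be placed on either side of it. Of the 30 genes, the following counts moved by more than 1.5 times. At 2-fold in place of 4-fold, 5 were lower for MDA-MB-436 minus MCF10A, 5 lower for HT-29 minus MCF10A, and 5 higher and 5 lower for HT-29 minus MDA-MB-436. At 8-fold, 1 was higher for HT-29 minus MDA-MB-436 and 1 for MDA-MB-436 minus MCF10A. The latter was LAMA4, whose fold against the background is at least 4.40, so its count at 8-fold rests on a value under background. Quantile normalization gave 2 lower for MDA-MB-436 minus MCF10A and 5 lower for HT-29 minus MDA-MB-436, where LAMB2 and LAMC1 reached log2 differences of -2.07 each. A floor at background or an offset of 16 left 1 gene higher for MDA-MB-436 minus MCF10A, because LAMA1 dropped out at 1.83 and 1.68; the floor also put it at -1.83 for HT-29 minus MDA-MB-436. The median over the 30 genes for MDA-MB-436 minus MCF10A was -0.12 after quantile normalization and -0.090 after median centring, and that for HT-29 minus MCF10A was -0.13 and -0.011, so neither has a settled sign. The median for HT-29 minus MDA-MB-436 was 0 with the floor. Scaling also moved all genes: quantile normalization shifted the median of HT-29 minus MCF10A by -0.12 and centring that of MDA-MB-436 minus MCF10A by -0.11. The other recomputed counts and medians stayed within 1.5 times or 0.1 log2. ITGA5, ITGB5, ITGB6 and LAMA4 stayed past 4-fold under quantile normalization, median centring, the floor and the offset. The median over a gene's clusters changed no intensity of the 30 genes, since each had 1 cluster, but it moved the background. The counts above background were then 18 in HT-29, 19 in MDA-MB-436 and 18 in MCF10A. Integrin heterodimers in MDA-MB-436 were then 10 in place of 9. No paired analysis was possible because each group has 1 array.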

Other observations

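LAMB1 and LAMB4 are next to each other on chromosome 7 with 0 protein-coding genes between them in RefSeq order, yet LAMB1 was at 253 in HT-29, 432 in MDA-MB-436 and 859 in MCF10A, while LAMB4 was at 9.80, 9.92 and 8.60 in the same lines. The other members on a shared chromosome lay at least 25 protein-coding genes apart.

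Among tetraspanins, which associate with laminin-binding integrins, CD151, the partner of α3β1 and α6β4, was at 2623 in HT-29, 909 in MDA-MB-436 and 2069.6 in MCF10A, the same order as ITGB4. This is a description of 3 arrays; CD151, PLEC and DST were chosen after their values were seen. The plakin genes PLEC and DST, whose products tie β4 to keratin, were under 2-fold apart between the lines, with PLEC at 414, 363 and 359 and DST at 140.1, 94.9 and 163 in HT-29, MDA-MB-436 and MCF10A.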
